A study of Homo sapiens with 2 samples.

Results

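The genes described here are 10 genes of eicosanoid synthesis and prostaglandin reception, measured in THP-1 cells, a human monocytic leukaemia cell line, after silencing of LY6E. The 10 are PLA2G4A, PTGS1, PTGS2, PTGES, TBXAS1, ALOX5, ALOX5AP, LTA4H, PTGER2 and PTGER4. They were taken by symbol from the platform annotation, which names 20046 genes in all, and were read by 13 of the 47321 probes of an Illumina array. The study compared THP-1 cells that stably express a short hairpin RNA against LY6E (shLY6E) with THP-1 cells that stably express a scrambled short hairpin RNA (shCtrl). Such a hairpin is cut in the cell into a small RNA that triggers the breakdown of the mRNA it matches. Both derivatives were grown under puromycin, and total RNA of each was hybridised to 1 single-colour array. The labels do not say whether a derivative is a clone or a mixed population, and no treatment or stimulus is named for either.

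Eicosanoids are short-lived lipid signals made from arachidonic acid. The cytosolic phospholipase encoded by PLA2G4A frees arachidonic acid from membranes. The cyclooxygenases encoded by PTGS1 and PTGS2 then turn it into the precursor of prostaglandins and thromboxane, and a separate branch led by the lipoxygenase ALOX5 turns it into leukotrienes. Monocytes and macrophages use both branches. Prostaglandin E2 made by these cells acts back on them through the EP2 and EP4 receptors, which raise cyclic AMP and restrain several inflammatory cytokines.

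Each difference is shLY6E minus shCtrl in background-corrected, quantile-normalized log2 intensity, and folds are computed from it. Detected means a detection p-value below 0.01, and genes with no probe detected on either array were set aside. Since each derivative had 1 array, no difference could be tested or checked in replicates, and the small number of arrays is what limits precision. The error given is the spread among probes of the same gene on these 2 arrays, a pooled SD of 0.28 on the log2 scale over 2254 genes. This SD leaves out the spread between cultures and between repeat arrays of the same RNA. It was 0.32 among genes with a mean log2 intensity under 7 and 0.22 among those at 9 or more. The shCtrl array was brighter as a whole, with a median deposited intensity of 97.5 in shLY6E against 116 in shCtrl, so deposited intensities cannot be set against each other without normalization. Intensities of different probes depend on the probe as well as the RNA, and do not rank genes by amount of RNA. The marker sums and the largest marker gap given below join different probes, so the brightest probes weigh most in them. LY6E, the targeted gene, had a deposited intensity of 253 in shLY6E against 1049 in shCtrl and was 3.67-fold lower. Of 9 monocyte markers with a probe, 9 were detected on each array, with summed processed intensities of 14734 in shLY6E and 8452 in shCtrl. Among these markers LYZ had the largest gap in processed intensity, at 4845 in shLY6E against 913 in shCtrl. On the normalized log2 scale the markers did not all go 1 way. Higher were CD14 by 3.36, LYZ by 2.39, CSF1R by 0.95, SPI1 by 0.53, CD4 by 0.35, CD36 by 0.34 and FCGR1A by 0.12. Lower were CD68, at -0.22, and ITGAM, at -0.48. Of 5 T cell markers and 6 epithelial and fibroblast markers, 0 were detected on either array, and of 4 B cell and 4 mast cell markers 2 each were detected in shLY6E and 1 each in shCtrl. The part of these markers in the differences given here was not tested.

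Of the 10 genes, 6 were detected on both arrays, PTGER2 on the shLY6E array only, and PLA2G4A, PTGES and ALOX5 on neither. TBXAS1, PTGER2 and LTA4H were higher in shLY6E by at least 1.5-fold, PTGER4 and PTGS1 by less, and ALOX5AP and PTGS2 lay close to the control level or the detection limit. Counted at 2-fold, 2 genes were higher and 0 lower, against 2.27% higher and 2.55% lower among all 10565 genes kept. Counted at 1.5-fold, 3 were higher and 0 lower, against 6.55% and 9.63% of all genes kept. The median of the 7 genes kept was 0.47, beside -0.04 over all genes kept. PTGER2 was kept only through the array on which it was higher, and the median of the 6 genes detected on both arrays was 0.44. These counts describe a hand-picked set.

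**Figure D1:**
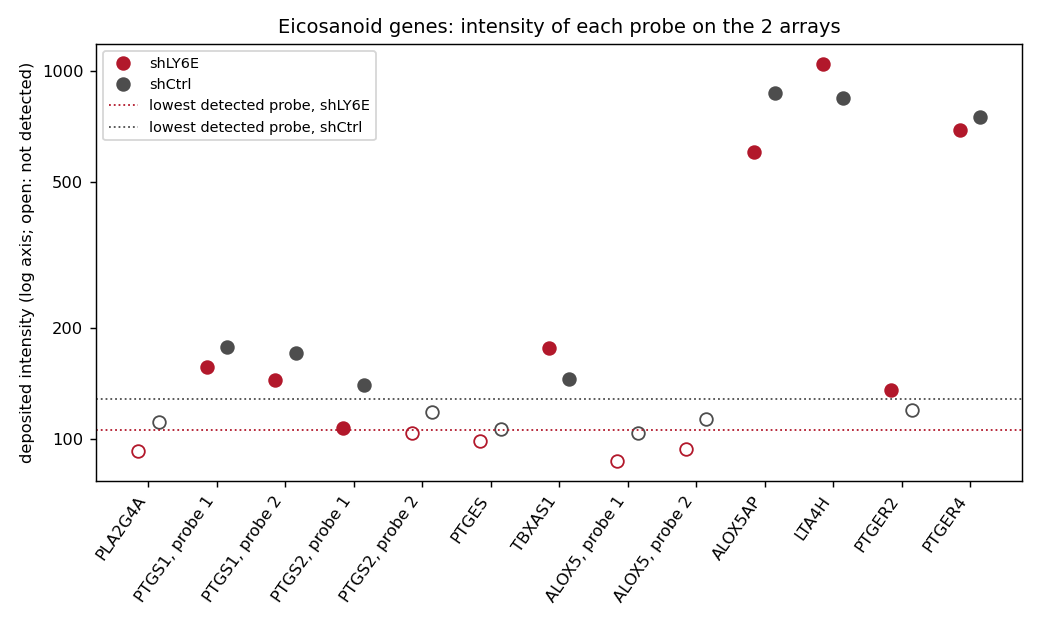
Deposited intensity (log axis) of each of the 13 probes on the shLY6E array (red, left) and the shCtrl array (grey, right), with filled points for detected probes, open points for probes that were not, and dotted lines at the lowest detected intensity of each array (106 in shLY6E, 129 in shCtrl). ALOX5AP, LTA4H and PTGER4 stand far above the lines, and PTGS2 lies just above them with 1 probe and below them with the other.

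The 250 bases before the RefSeq transcription start (GRCh38.p14) are given for 3 genes, 5′ to 3′ on the gene's strand. TBXAS1 and PTGER2 are shown because they differed most, and PTGS2 because it is the classic inducible gene of the pathway and a textbook target of NF-kB. Capitals mark matches on either strand to the pattern GGGNNNNCCC, a palindrome that classic NF-kB sites can contain, to the TATA box TATAAA and to the GC box GGGCGG, where N is any base.
TBXAS1, chr7:139829014-139829263, plus strand: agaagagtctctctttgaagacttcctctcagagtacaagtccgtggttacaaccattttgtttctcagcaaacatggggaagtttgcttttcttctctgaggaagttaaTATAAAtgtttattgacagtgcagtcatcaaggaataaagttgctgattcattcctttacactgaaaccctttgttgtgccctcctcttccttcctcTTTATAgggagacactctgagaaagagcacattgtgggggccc
PTGER2, chr14:52314062-52314311, plus strand: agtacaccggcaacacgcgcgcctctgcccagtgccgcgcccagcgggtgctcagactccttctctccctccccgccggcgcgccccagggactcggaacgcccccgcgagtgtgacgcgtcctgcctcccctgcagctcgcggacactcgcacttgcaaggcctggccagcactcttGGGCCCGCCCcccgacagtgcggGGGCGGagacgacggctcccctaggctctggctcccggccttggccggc
PTGS2, chr1:186680424-186680673, minus strand: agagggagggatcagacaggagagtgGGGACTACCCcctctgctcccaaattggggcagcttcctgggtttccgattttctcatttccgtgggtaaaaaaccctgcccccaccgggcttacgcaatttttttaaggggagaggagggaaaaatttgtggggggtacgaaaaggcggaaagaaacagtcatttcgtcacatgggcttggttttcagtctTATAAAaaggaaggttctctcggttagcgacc

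The PTGS2 window held 1 match to the NF-kB pattern, 224 to 215 bases before the start, and a TATA box 32 to 27 bases before it. The TBXAS1 window held TATAAA on the plus strand 140 to 135 bases before the start and its reverse complement 43 to 38 bases before it, and 0 matches to the other patterns. In the PTGER2 window the NF-kB pattern lay 72 to 63 bases before the start and overlapped 1 of 2 GC boxes. Of 27305 promoter windows of this length, 15.6% held the NF-kB pattern, 11.1% the TATA box and 42.3% the GC box. Windows matched for 9 of the 10 genes. Among them PTGER4 also held 1 match to the NF-kB pattern, and the windows of PTGS1, PTGES, LTA4H, ALOX5AP and PLA2G4A held 0. The receptor windows were rich in CG dinucleotides, 28 in PTGER2 and 26 in PTGER4, against 1 in TBXAS1 and a median of 11 over all windows. The patterns were chosen after the sequences were seen, and a match is a run of letters, not a shown binding site.

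PLA2G4A, the first enzyme of the pathway, was not detected. Its probe had an intensity of 92.9 in shLY6E (detection p-value 0.42) against 111 in shCtrl (0.30), below the lowest detected intensity of each array. No fold is given for it, and a low level below the detection limit cannot be told from none.

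PTGS1, the constitutive cyclooxygenase, was detected on both arrays by both of its probes. The first probe had intensities of 157 in shLY6E against 178 in shCtrl, or normalized log2 intensities of 6.61 and 6.20, a difference of 0.41 (1.33-fold). The second gave 145 in shLY6E against 172 in shCtrl, and a difference of 0.28. The probes gave the same direction and differed from each other by less than the between-probe SD. The difference of 0.41 was larger than that SD of 0.32 for dim genes, though less than 2 times as large, and its sign came from the normalization, since both deposited intensities were lower in shLY6E.

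PTGS2, the inducible cyclooxygenase, was barely detected. Its first probe had an intensity of 108 in shLY6E (detection p-value 0.0065) against 140 in shCtrl (0.0026), or 5.13 against 5.42 on the log2 scale. The difference was -0.29 (1.22-fold lower), smaller than the between-probe SD of dim genes. The second probe was detected on neither array, with intensities of 104 in shLY6E (p-value 0.027) against 118 in shCtrl (0.077), and its measured difference of 0.25 had the opposite sign. A direction for PTGS2 was therefore not detectable on these arrays.

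NFKB1, the NF-kB subunit gene that was highest in shLY6E among the detected regulators of PTGS2 and PLA2G4A, had an intensity of 2317 in shLY6E against 1382 in shCtrl and was 2.45-fold higher. The other transcription factors of that list lay closer to the control level. CEBPB, which can activate PTGS2 transcription, differed by -0.28, EGR1 by 0.28 and RELA by 0.56. CREB1 differed by -0.16 with its brightest probe and by -0.43, -0.18 and 0.52 with the others, so its direction depended on the probe. ZFP36, whose protein promotes decay of PTGS2 mRNA, differed by 0.14. CELF2, whose RNA-binding protein represses translation of PTGS2 mRNA, was 1.95-fold lower, and TIAL1, another RNA-binding protein gene, was 1.69-fold lower. Both lie on chromosome 10, described with ALOX5. Another probe of CELF2, detected on both arrays, differed by -0.92. The dimmest CELF2 probe, detected in shLY6E only, gave a bound of 0.35 in the other direction. The other probes of TIAL1 gave a difference of -0.53 and a bound of -1.41. ANXA1, which encodes the phospholipase inhibitor annexin A1, differed by 0.46. CEBPB, EGR1, RELA, ZFP36 and ANXA1 were named after their values were seen.

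PTGES, the inducible prostaglandin E synthase that works with PTGS2, was not detected. Its intensity was 99.1 in shLY6E (detection p-value 0.11) against 106 in shCtrl (0.59). The other 2 prostaglandin E synthases were detected on both arrays and within 1.5-fold: PTGES2 differed by -0.17 and PTGES3, the cytosolic enzyme that doubles as a chaperone partner, by -0.13. PTGDS, a prostaglandin D synthase of the lipocalin family, was 2.14-fold higher, with an intensity of 136 in shLY6E against 129 in shCtrl, and the shCtrl value was at the lowest detected there. Its difference of 1.10 on the log2 scale was 0.36 without background correction, under 1.5-fold. HPGDS and PTGIS, the haematopoietic prostaglandin D synthase and the prostacyclin synthase, were detected on neither array.

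TBXAS1, which encodes thromboxane A synthase, had the largest difference among the 6 genes detected on both arrays. Its probe had an intensity of 177 in shLY6E against 146 in shCtrl, and both were detected. The normalized log2 intensities were 6.94 in shLY6E and 5.56 in shCtrl, a difference of 1.39 or 2.62-fold. This was more than 4 times the between-probe SD of dim genes, and 123 of the 10565 genes kept had a larger difference in the higher direction. In the authors' processed intensities TBXAS1 stood at 111 in shLY6E against 33.3 in shCtrl. The size of the fold depended on the background estimate, because the shCtrl value lay 0.49 above the lowest detected log2 intensity: it was 0.60 on the log2 scale without background correction. TBXAS1 was read by 1 probe, so no other probe checks it. In bulk RNA, more cells with a transcript and more transcript per cell cannot be told apart. TBXA2R, the thromboxane receptor, was detected on neither array. Among markers of megakaryocytes and platelets, which also express TBXAS1, 3 of 5 were detected on each array, with summed processed intensities of 120 in shLY6E and 125 in shCtrl, and PF4 and ITGA2B on neither.

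**Figure D2:**
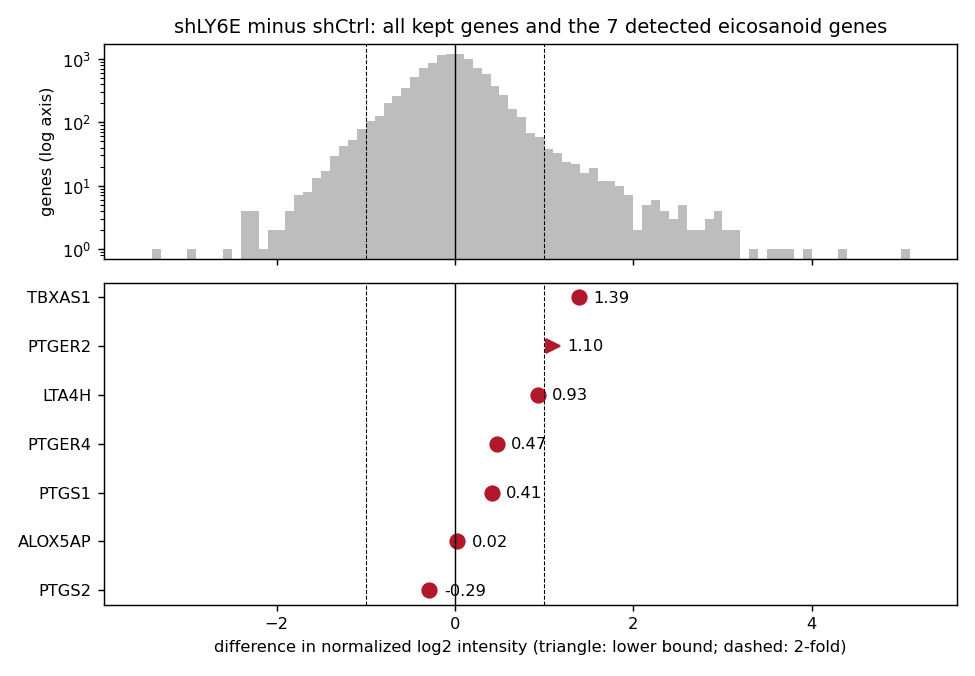
The upper panel shows the number of genes (log axis) at each shLY6E minus shCtrl difference in normalized log2 intensity, for all 10565 genes kept, and the lower panel the difference of each of the 7 detected eicosanoid genes on the same axis. Points are measured differences, the triangle is a lower bound, and dashed lines mark 2-fold; TBXAS1 at 1.39 and PTGER2 at a bound of 1.10 lie beyond the upper one.

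ALOX5, the lipoxygenase that starts leukotriene synthesis, was not detected by either of its probes. One had intensities of 94.3 in shLY6E against 113 in shCtrl, with detection p-values of 0.34 and 0.22. The other had 87.3 in shLY6E against 104 in shCtrl, with detection p-values of 0.76 and 0.74. The first was brighter than 39.0% of all probes in shLY6E and 42.5% in shCtrl, so both arrays placed ALOX5 among probes without detected signal.

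ALOX5 lies on chromosome 10, whose genes were lower in shLY6E as a whole, a grouping first seen in these same data. Among the 324 genes of that chromosome that both arrays detected, 300 stood below 0 and the median was -0.80, beside -0.03 over the 9040 genes of other chromosomes. Of the 20 detected genes nearest to ALOX5, 10 on either side, 18 were lower, with a median of -0.62 and a range from -1.30 to 0.32. Whether ALOX5 shared this difference could not be read, since both of its probes lay below the detection limit on both arrays. The other 9 genes lie on chromosomes 1, 5, 7, 9, 12, 13 and 14, whose medians ran from -0.06 to 0.03.

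**Figure D3:**
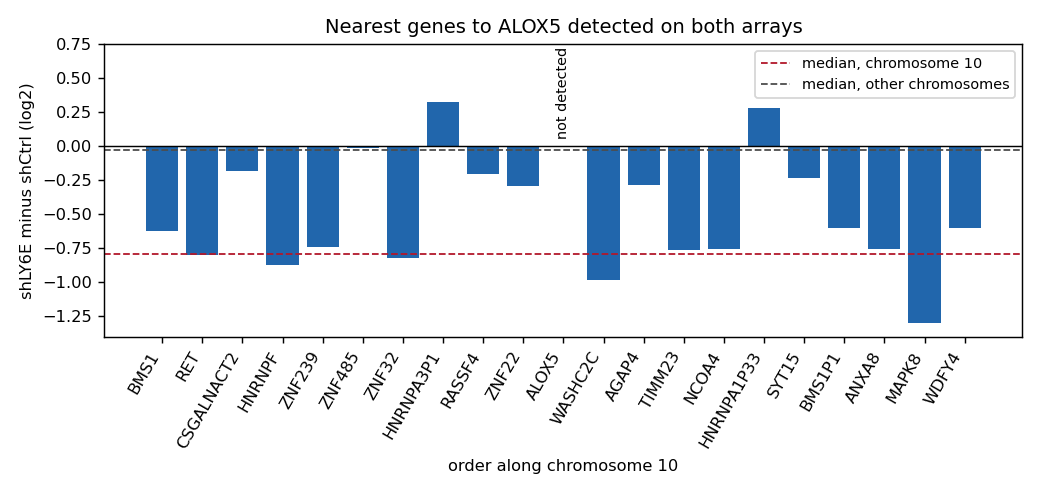
Bars give the shLY6E minus shCtrl difference in normalized log2 intensity of the 20 genes nearest to ALOX5 that were detected on both arrays, in their order along chromosome 10; the place of ALOX5 is marked as not detected. Of the 20 bars 18 are below 0, and the dashed lines mark the medians of chromosome 10 (-0.80) and of all other chromosomes (-0.03).

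ALOX5AP encodes the membrane protein that presents arachidonic acid to ALOX5. Its intensity was 604 in shLY6E against 869 in shCtrl, well above the detection limit on both arrays. The normalized log2 intensities were 9.36 in shLY6E and 9.34 in shCtrl, a difference of 0.02, less than the between-probe SD of 0.22 for bright genes. COTL1, a binding partner of ALOX5, differed by 0.09.

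LTA4H, the hydrolase that makes leukotriene B4 from leukotriene A4, was higher in shLY6E by just under 2-fold. Its intensity was 1046 in shLY6E against 846 in shCtrl, so it was higher in shLY6E even before normalization. On the log2 scale it stood at 10.22 in shLY6E and 9.30 in shCtrl, a difference of 0.93, about 4 times the between-probe SD of bright genes. Of the other genes kept, 273 had a larger difference in the higher direction. LTA4H was read by 1 probe, and of the 3 genes at least 1.5-fold higher it depended least on background, at 0.83 without background correction.

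LTC4S, the synthase that draws on the same leukotriene A4 to make leukotriene C4, was lower in shLY6E. Its intensity was 393 in shLY6E against 1419 in shCtrl, and it was 2.81-fold lower, a difference of -1.49. This was the lowest difference among the 66 detected genes of the other pathway lists, and it stood between -1.95 and -1.29 under all 11 settings. LTC4S lies on chromosome 5. Of the related microsomal glutathione transferase genes, MGST2 was 1.45-fold lower and MGST3 1.11-fold lower. The remaining lipoxygenases ALOX12, ALOX12B, ALOX15, ALOX15B and ALOXE3 were detected on neither array.

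Of the leukotriene receptors, LTB4R, the high-affinity receptor for leukotriene B4, differed by -0.34, and CYSLTR1, a receptor for the cysteinyl leukotrienes, by 0.29. PTAFR, the receptor for platelet-activating factor, was 2.44-fold higher, with an intensity of 157 in shLY6E against 137 in shCtrl. The PTAFR difference of 1.29 on the log2 scale was 0.50 without background correction, under 1.5-fold. FPR2, a receptor for formyl peptides and lipid mediators, was detected in shLY6E only, with a bound of 0.18 that does not limit its difference from above.

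PTGER2, which encodes the EP2 receptor, was detected in shLY6E only. Its intensity was 136 in shLY6E (detection p-value 0) against 120 in shCtrl (0.061). The normalized log2 intensity was 6.16 in shLY6E and 4.74 in shCtrl, where it lay below the lowest detected level of 5.06. Set against that level, PTGER2 was at least 2.14-fold higher, a bound of 1.10 on the log2 scale. The bound was 0.36 without background correction and 0.65 with an offset of 50, both of which shrink differences of dim genes. PTGER2 was read by 1 probe.

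PTGER4, which encodes the EP4 receptor, was detected clearly on both arrays, with an intensity of 692 in shLY6E against 750 in shCtrl. Its normalized log2 intensity was 9.57 in shLY6E and 9.10 in shCtrl, a difference of 0.47 (1.38-fold), about 2 times the between-probe SD of bright genes. As for PTGS1, the deposited intensity was lower in shLY6E, and the sign came from the normalization. Scaled to a common median over all probes, most of which carry no detected signal, the median of all genes kept moved to -0.42. Under that scaling PTGER4 stood at 0.018 and PTGS1 at 0.034, which is 0.44 and 0.45 above the median of all genes kept.

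The remaining prostanoid receptors were near or below the detection limit. PTGER3 and PTGIR were detected in shLY6E only, PTGER1 and PTGFR in shCtrl only, and PTGDR, PTGDR2 and TBXA2R on neither array. The bounds of the 4 detected receptors ran from -0.16 to 0.26. They were set by how near these probes lay to the detection limit, and the size of the differences beyond them could not be read.

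Downstream of EP2 and EP4, 15 genes of the cyclic AMP arm were detected, with a median of 0.03. Counted at 1.5-fold, 1 of the 15 was higher and 2 were lower, beside 6.55% and 9.63% of all genes kept. GNAS, the stimulatory G protein subunit that couples these receptors to adenylyl cyclase, differed by 0.15. The adenylyl cyclase genes ADCY4 and ADCY9 were 2.41-fold and 1.79-fold lower, while ADCY3 and ADCY7 differed by 0.03 and -0.12. ADCY4 had an intensity of 111 in shLY6E, near the lowest detected there, against 204 in shCtrl, and its difference of -1.27 was -0.48 without background correction. PDE4B, a phosphodiesterase that breaks down cyclic AMP, was detected in shLY6E only and was at least 1.99-fold higher, and its less bright probe gave a bound of 0.35. The larger bound, 0.99, was 0.32 without background correction.

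In the list for the supply of arachidonic acid, the 8 detected genes of lipases, phospholipases and other hydrolases had a median of 0.12. PLA2G4A is not in that list. At 1.5-fold 2 of the 8 were higher and 1 was lower, beside 6.55% and 9.63% of all genes kept. PLA2G4C, a paralogue of PLA2G4A that does not need calcium, was 1.70-fold higher, with an intensity of 187 in shLY6E against 186 in shCtrl. PLA2G7, which encodes the platelet-activating factor acetylhydrolase of plasma, was detected in shLY6E only and was at least 1.53-fold higher. PLA2G15, a lysosomal phospholipase, was 1.51-fold lower. DAGLB, a diacylglycerol lipase, differed by 0.51. Of the 6 detected genes that return arachidonic acid to phospholipids, 2 were at least 1.5-fold higher and 2 lower, beside the same shares of all genes kept. The acyl-CoA synthetase gene ACSL1 was 1.61-fold higher and the acyltransferase gene LPCAT2 differed by 0.59, just past 1.5-fold. ACSL5, on chromosome 10, was 2.63-fold lower with its brighter probe and 1.70-fold lower with the other, and MBOAT7, an acyltransferase that favours arachidonic acid, was 1.51-fold lower. ACSL4, the synthetase that prefers arachidonic acid, differed by -0.16 with its brightest probe and by 0.79 with the other, so its direction depended on the probe. Without background correction PLA2G4C stood at 0.39, PLA2G7 at a bound of 0.18, ACSL1 at 0.31, LPCAT2 at 0.25, PLA2G15 at -0.40 and MBOAT7 at -0.50, so that none of these 6 was counted at 1.5-fold, while ACSL5 stood at -0.85.

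Genes of prostaglandin transport and breakdown showed no difference of 1.5-fold. The exporter gene ABCC4 differed by 0.38 and the prostaglandin reductase genes PTGR1 and PTGR2 by -0.24 and -0.10. HPGD, the dehydrogenase that inactivates prostaglandin E2, and the importer gene SLCO2A1 were detected on neither array.

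Over all 9 lists, which hold none of the 10 genes, 66 of 101 genes with a probe were detected. Of these, 8 (12.1%) were higher and 8 (12.1%) lower by 1.5-fold or more, beside 6.55% and 9.63% of all genes kept. Their median was 0.00, with 33 above 0 and 33 below. Without background correction NFKB1, at 1.22, alone of the 8 higher genes stayed past 1.5-fold. Of the 8 lower genes, ACSL5, LTC4S, CELF2, TIAL1 and ADCY9 stayed past it. The higher count also holds PLA2G7 and PDE4B, which were kept only through the shLY6E array. Of the 4 pathway genes detected on chromosome 10, 3 were at least 1.5-fold lower, ACSL5, CELF2 and TIAL1. The other, AKR1C3, was detected in shCtrl only, with a bound of -0.30 that does not limit how much lower it was. The median of all chromosome 10 genes detected on both arrays was -0.80.

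**Figure D4:**
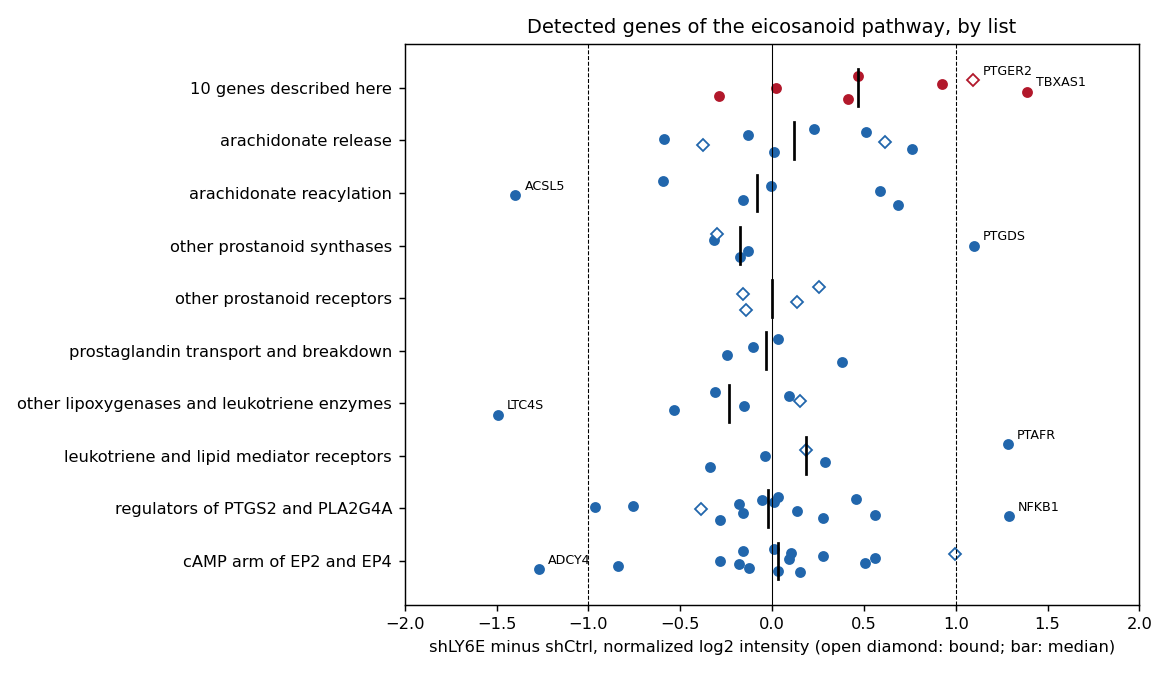
Each point is the shLY6E minus shCtrl difference in normalized log2 intensity of 1 detected gene, for the 7 detected of the 10 genes described here (red) and 9 lists of other pathway genes (blue); open diamonds are bounds, black bars are medians and dashed lines mark 2-fold. LTC4S (-1.49) lies at the left end and TBXAS1 (1.39) at the right.

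TBXAS1, LTA4H, PTGER4 and PTGS1 were higher in shLY6E under all 11 processing settings tried, and PTGER2 under the 10 that gave a value. Under median scaling over all probes LTA4H stood at 0.48, short of 1.5-fold, and PTGER4 and PTGS1 at 0.018 and 0.034. Among the 7 detected of the 10 genes, LTA4H had the largest difference without background correction, 0.83, ahead of TBXAS1 at 0.60.

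**Figure D5:**
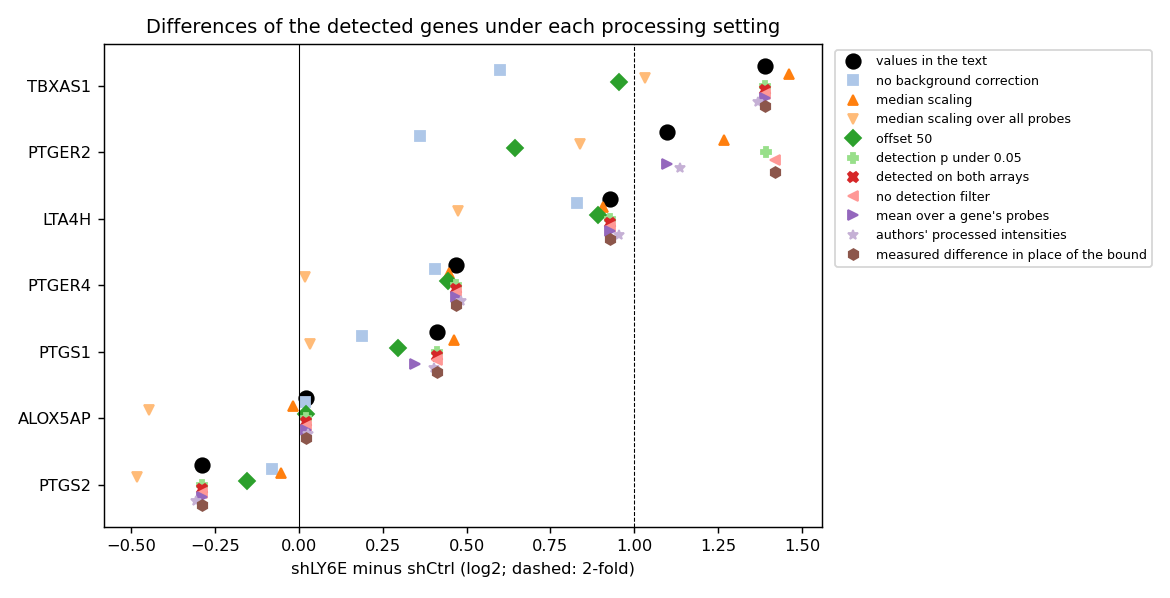
The shLY6E minus shCtrl difference (log2) of each detected eicosanoid gene as given in the text (black) and under 10 other processing settings (coloured symbols); the dashed line marks 2-fold. TBXAS1 spans 0.60 to 1.46, PTGER2 0.36 to 1.42 and LTA4H 0.48 to 0.95, all above 0, while PTGS2 spans -0.48 to -0.05.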

How the data were processed

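Per the file headers, the unnormalized table the authors deposited holds intensities and detection p-values for each array. The deposited intensities were linear and showed neither background subtraction nor scaling. A second deposited table held the authors' processed intensities, linear, with a median of 6.14 in both columns and 25.5% of values below 0. Its normalization and the scanner software were not given in the sources used here. Groups came from the sample titles, and 0 columns were left without a sample.

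Unnormalized intensities were background-corrected with normexp, with background estimated from detection p-values and 16 added as offset, quantile-normalized and log2-transformed (limma 3.58.1, R 4.3.3). Gene summaries used Python 3.11.15, numpy 2.4.6 and pandas 2.3.3, and figures matplotlib 3.10.9. The steps were tested on simulated arrays with known fold changes. These were given only to probes with a higher mean processed intensity than those of PTGS2 and PTGER2. The test therefore does not cover genes that dim. Each gene was represented by its brightest detected probe. Where 1 array detected it, its difference is a bound, taken against the lowest detected log2 intensity of the other array, or against the gene's own value there if higher (5.05 in shLY6E, 5.06 in shCtrl). Of 47321 probes, 30113 had 1 gene symbol, 8 had several, and for 17200 the annotation lists none. Chromosomes, gene order and promoter windows came from RefSeq tables of GRCh38.p14; no build is given for the probes. With 1 array per group no p-value was computed for a difference. The rule named all 10 genes, LY6E, and from each of the 9 lists up to 4 genes at least 1.5-fold apart and the gene with the brightest probe; other list genes were named after their values were seen. The members and lists were chosen with earlier results of these data known. The alternatives were no background correction, an offset of 50, median scaling, the mean over probes, a looser detection p-value (under 0.05), no filter on detection, detection required on both arrays, the authors' processed intensities (values below 0 set to 0, plus 16) and measured differences where the text gives bounds. Median scaling over all probes was added after seeing the data.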

Additional observations from a re-analysis of the deposited data

How the results depend on the processing

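Of the 10 genes, 2 were at least 2-fold higher. The count was 0 without background correction and 0 with an offset of 50, both of which shrink differences by construction. It was 1 with detection on both arrays, which leaves out PTGER2, and 1 with median scaling over all probes. The median of the genes kept, 0.47, moved to 0.034 under that last scaling, as the median of all genes kept moved to -0.42. At least 1.5-fold higher were 3 of the 10 genes. That count was 2 without background correction, 2 under median scaling over all probes and 2 with detection on both arrays. At least 1.5-fold lower were 0 of the 10 genes under each of the 11 settings. TBXAS1, PTGER2, LTA4H, PTGER4 and PTGS1 were above 0 under each setting that gave a value, and the detected probe of PTGS2 was below 0. ALOX5AP turned negative under both median scalings (-0.02, and -0.45 over all probes). Without background correction the whole array held 86 genes at least 2-fold higher and 55 lower, and with an offset of 50 it held 144 and 129, against 240 and 269; with median scaling over all probes it held 130 and 909. The medians of the pathway lists were all below 0 under median scaling over all probes, where the median of all genes kept was also below 0, at -0.42. Without background correction chromosome 10 stood at -0.48 relative to other genes and with no detection filter at -0.24, against -0.77. Detection limits the values of PLA2G4A, PTGES and ALOX5, which have none, and of PTGS2 and PTGER2. No paired analysis was possible because there was a single array of each derivative.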
